A study of Mus musculus with 6 samples.

Results

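The genes described are 38 genes of protein folding and the unfolded protein response in the endoplasmic reticulum (ER), named here the ER list, in primary brite adipocytes with and without *Ctcflos* KD. They were chosen as ER chaperones, disulfide isomerases, degradation factors, stress sensors and translocon subunits, with earlier results of these libraries known, and make up 38 of the 52089 gene symbols of the expression table. Brite adipocytes are thermogenic fat cells that arise in white adipose tissue, and *Ctcflos* is a long noncoding RNA antisense to *Ctcfl*. Precursor cells of the stromal vascular fraction of inguinal fat of 129SvEv mice were induced for 2 days with insulin, T3, IBMX, indomethacin, dexamethasone and rosiglitazone. They were kept in insulin, T3 and rosiglitazone for 1 day of differentiation, and both groups shared these agents. The *Ctcflos* KD group (3 libraries) then received 50 nM of an LNA gapmer antisense oligonucleotide against *Ctcflos*, and the NC ctrl group (3 libraries) received 50 nM of a nontargeting gapmer. RNA was taken 24 h later. A single oligonucleotide sequence was used, in cultures differentiated from a mixed cell fraction. The labels number the replicates but do not state whether they came from separate cultures, so the p-values measure only the spread between these libraries, which may be technical.

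Secreted and membrane proteins enter the ER through the SEC61 channel, are folded with the help of chaperones, lectins and disulfide isomerases, and are sent back to the cytosol for degradation when folding fails. When unfolded proteins accumulate, the sensors IRE1, PERK and ATF6 release BiP and start the unfolded protein response, in which ATF6 and the spliced form of XBP1 raise transcription of chaperone and degradation genes, while PERK slows translation and induces ATF4. Adipocytes carry a secretory load of adipokines, collagens and lipid-handling enzymes and use this machinery constantly.

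Part of the ER list carries a short sequence element in its promoters through which ATF6 and XBP1 act. The ER stress response element (ERSE) is CCAAT and CCACG with 9 bases of any kind between them, and ERSE-II is ATTGG and CCACG with 1 base between them. Both were searched on both strands in RefSeq promoter windows of GRCm38.p6, which reach from 250 bases before to 50 bases after the start of a transcript, and 31 of the 38 genes had such a window. An exact ERSE was found in 9 of these 31 genes (29.0%) and in 37 of 27025 genes with a window (0.137%), and an exact ERSE-II in 2 of the 31 genes (6.45%) and 12 of all genes (0.0444%). The UPRE core, TGACGTGG, was found in 0 of the 31 genes and in 0.714% of all genes. The ER list was chosen as genes of the response that the ERSE serves, so its excess over all genes is no independent result. Of the 12 genes with a window that were called lower in *Ctcflos* KD, 5 had an ERSE and 2 an ERSE-II, and of the other 19 genes 4 had an ERSE and 0 an ERSE-II. The promoter of *Hspa5*, the gene of BiP, is shown in full before its start site, and for the other genes called lower with a match before the start site the element is shown with 20 bases on either side, so that the orientation and spacing can be compared. Capitals mark the match, which reads CGTGG to ATTGG where an ERSE lies on the other strand.
*Hspa5*, chr2:34771840-34772089, plus strand: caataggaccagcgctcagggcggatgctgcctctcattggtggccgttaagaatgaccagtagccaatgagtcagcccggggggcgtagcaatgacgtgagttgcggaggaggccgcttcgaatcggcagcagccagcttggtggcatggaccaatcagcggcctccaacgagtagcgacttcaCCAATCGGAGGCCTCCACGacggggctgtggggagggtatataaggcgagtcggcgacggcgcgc
*Hsp90b1*, chr10:86705513-86705676, minus strand: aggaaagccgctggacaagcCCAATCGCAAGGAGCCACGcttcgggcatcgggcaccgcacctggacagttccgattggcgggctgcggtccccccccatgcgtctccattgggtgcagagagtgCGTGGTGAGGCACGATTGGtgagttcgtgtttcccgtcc
*Calr*, chr8:84847055-84847113, minus strand: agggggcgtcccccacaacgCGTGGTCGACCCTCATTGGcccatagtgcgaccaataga
*Canx*, chr11:50325780-50325838, minus strand: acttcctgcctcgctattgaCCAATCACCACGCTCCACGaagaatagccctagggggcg
*Pdia6*, chr12:17266471-17266529, plus strand: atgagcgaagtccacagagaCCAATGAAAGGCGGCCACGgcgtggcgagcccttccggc
*Herpud1*, chr8:94386357-94386407, plus strand: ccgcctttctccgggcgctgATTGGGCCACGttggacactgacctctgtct
Positions are counted from the RefSeq start site. For *Hspa5*, Gencode vM21 places the start of the gene upstream of it, within the printed run and before the match. The first base of the match lay 65 bases before the start site in *Hspa5*, 212 and 107 in *Hsp90b1*, 162 in *Calr*, 145 in *Canx*, 98 in *Pdia6* and 52 in *Herpud1*. In *Dnajb11*, also called lower, the ERSE-II began 7 bases after the start site. *Dnajc3*, *Creld2*, *Syvn1* and *Derl3* held an ERSE as well and were not called, *Derl3* because it was not tested. Of the 11701 tested genes, 6950 had a window under the same symbol, and only these could show a match. Outside the ER list, 3 tested genes had an exact ERSE, chosen here for the match and with their values seen, namely *Acacb*, *Adcy3* and *Alg12*. *Alg12*, a mannosyltransferase gene, shares its element with *Creld2*, since both matches cover chr15:88819520-88819538. It was lower in *Ctcflos* KD (log2 fold change -0.38, limma adjusted p = 0.022), while *Creld2* was not called. An exact ERSE-II was found in 6 tested genes outside the ER list, of which *Lgalsl* (log2 fold change 0.43, limma adjusted p = 0.028) and *Lrif1* (0.41, limma adjusted p = 0.038) were higher in *Ctcflos* KD. The other 4, *Krtcap2*, *Nucb1*, *Rbm39* and *Rcl1*, were not called, nor were *Acacb* and *Adcy3*. A match is a description of letters and not a measured site.

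**Figure D1:**
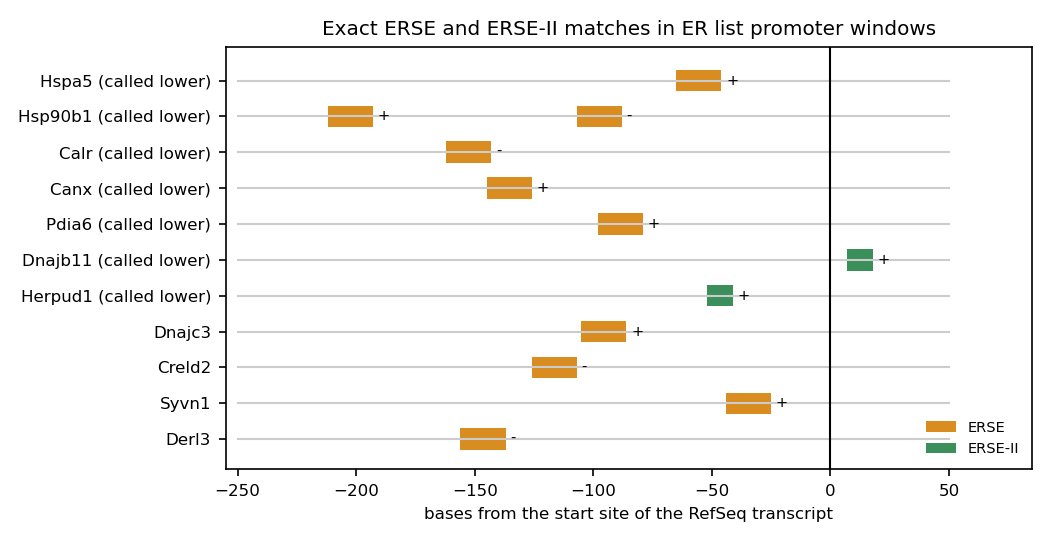
Position of exact ERSE (orange) and ERSE-II (green) matches in bases from the start site of the RefSeq transcript for the 11 ER list genes with a match, with the strand of the match beside each box and genes called lower in *Ctcflos* KD at the top. Each match lies before the start site except that of *Dnajb11*.

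The libraries held 60.8 to 79.2 mio mapped reads, recovered from the steps between low values. *Ctcflos* itself had 0.0969, 0.0705 and 0.210 RPKM (reads scaled to transcript length and library depth) in *Ctcflos* KD and 0.748, 0.751 and 0.840 RPKM in NC ctrl, leaving 16.1% (exact permutation test, two-sided, p = 0.1, the smallest that 3 against 3 libraries allow). All 7 general adipocyte markers examined had a mean of at least 1 RPKM, and their summed level ran from 4227 to 5629 RPKM in *Ctcflos* KD and from 5899 to 6556 RPKM in NC ctrl, with 1 of 7 called lower (*Cebpa*). The sum over 6 brite markers was 61.9 to 81.6 RPKM in *Ctcflos* KD and 109 to 166 RPKM in NC ctrl, with 3 of 5 tested markers called lower (*Ucp1*, *Ppargc1a* and *Elovl3*). *Cidea* and *Cox7a1* had lower means with overlapping groups and were not called. *Dio2*, under the filter, went the other way, with 0.293 to 0.589 RPKM in *Ctcflos* KD and 0.128 to 0.256 RPKM in NC ctrl. Of 7 preadipocyte and fibroblast markers, 6 reached 1 RPKM, with sums of 446 to 697 RPKM in *Ctcflos* KD and 605 to 831 RPKM in NC ctrl, and 1 of these 6 was called lower (*Pdgfra*). *Thy1*, *Col3a1* and *Ly6a* had lower means in *Ctcflos* KD and were not called. *Pdgfrb*, *Col1a1* and, under the filter, *Dlk1* had higher means there, with overlapping groups. Of 6 macrophage markers 2 reached 1 RPKM (sums of 6.64 to 16.3 RPKM against 8.13 to 27.7 RPKM). The macrophage markers went both ways. *Lyz2* made up most of the control sums, had a lower mean in *Ctcflos* KD with overlapping groups, and was not called (limma adjusted p = 0.17). *Cd68* was higher, at 2.16 to 4.12 RPKM in *Ctcflos* KD and 0.657 to 1.92 RPKM in NC ctrl (log2 fold change 1.05, limma adjusted p = 0.023). *Csf1r*, under the filter, had 1.10 to 1.48 RPKM in *Ctcflos* KD and 0.269 to 0.833 RPKM in NC ctrl. *Ptprc*, also under the filter, was lower in each *Ctcflos* KD library than in each control. *Emr1* and *Itgam*, under it as well, overlapped between groups, *Emr1* with a lower mean in *Ctcflos* KD. A mean of 1 RPKM was reached by 0 of 5 endothelial markers (0.654 to 0.933 RPKM against 1.08 to 1.35 RPKM). The same held for 1 of 6 mesothelial and epithelial markers (8.36 to 30.4 RPKM against 6.56 to 9.98 RPKM) and 1 of 5 mural markers (18.9 to 49.5 RPKM against 33.8 to 85.6 RPKM). It held for 0 of 5 skeletal muscle markers (0.167 to 0.285 RPKM against 0.0826 to 0.221 RPKM), of which *Myod1* and *Myh4* were at 0 in every library. The part of these marker differences in the results below was not tested, and in such bulk RNA fewer cells of a type and less RNA per cell cannot be told apart.

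Of the 38 genes, 35 passed the filter of a mean of 1 RPKM, and 13 of these were lower in *Ctcflos* KD at an adjusted p under 0.05, that is 37.1% where 12.4% of all 11701 genes tested were called lower. None was called higher by limma (1 at an unadjusted p under 0.05, *Sec61a1*), where 11.5% of all genes were. In either direction 24% of all genes were called. The log2 fold change, taken on log2(RPKM + 1) as *Ctcflos* KD minus NC ctrl, was negative in 31 and positive in 4 of the 35 genes, and its median was -0.27 where that of all genes tested was 0.03. In 20 of the 35 genes each *Ctcflos* KD library lay below each NC ctrl library, which held for 21.9% of all genes, and in 1 gene each lay above, which held for 22.9%. The values of the other 14 genes overlapped between groups. The number called lower depended on single libraries. It was 4 without *Ctcflos* KD replicate 1, 9 without replicate 2 and 15 without replicate 3, and 1 (*Atf6*), 5 and 1 (*Atf6*) without NC ctrl replicates 1, 2 and 3. Among all genes, 1164, 1094 and 4810 were called in either direction without *Ctcflos* KD replicates 1, 2 and 3. Without NC ctrl replicates 1, 2 and 3 these numbers were 421, 1583 and 369. The share of all genes called lower was 6.22%, 5.51% and 17.8% without the KD replicates and 2.47%, 8.19% and 2.04% without the controls. The 1 of 35 genes called lower without NC ctrl replicate 1 or 3 was therefore near the share of all genes.

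**Figure D2:**
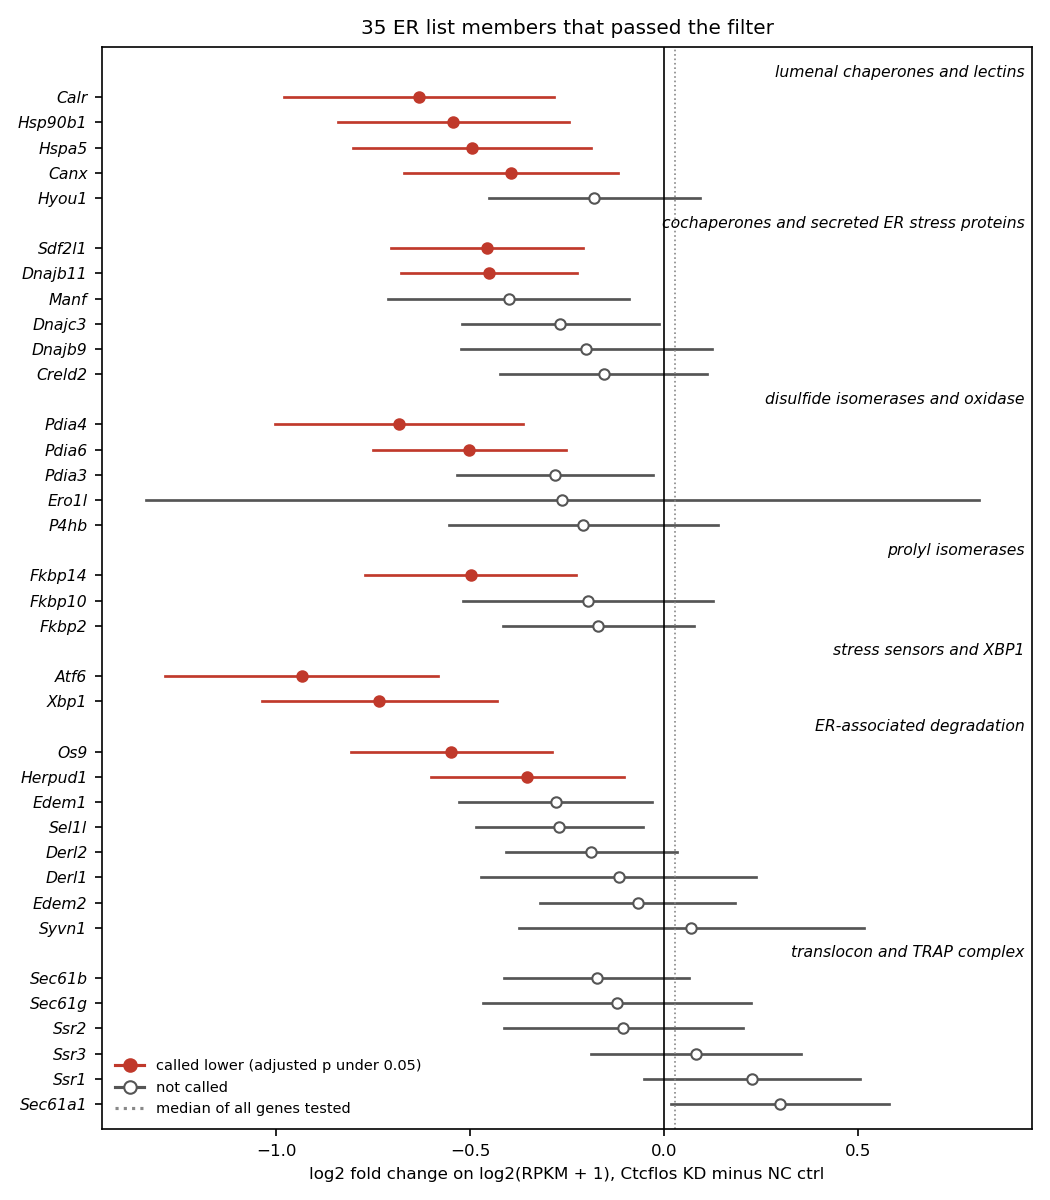
Log2 fold change (point) with its 95% interval from limma (line) for the 35 ER list genes that passed the filter, grouped by role, on the log2(RPKM + 1) scale. The 13 genes called lower (filled, red) run from -0.93 in *Atf6* to -0.35 in *Herpud1*, while the 6 translocon and TRAP genes at the bottom lie on both sides of 0.

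The shift of the median stood in each *Ctcflos* KD library on its own. Against the mean of the controls, the median difference of the 35 genes on the log2(RPKM + 1) scale was -0.29, -0.26 and -0.29 in *Ctcflos* KD replicates 1, 2 and 3, where the median of all genes was 0.05, 0.05 and -0.02. Against the controls other than itself it was -0.08, 0.06 and 0.06 in NC ctrl replicates 1, 2 and 3. The 3 KD libraries were thus close to each other, and NC ctrl replicate 1 was the lowest of the controls. Of the 35 genes, 30, 28 and 32 lay below the mean of the controls in *Ctcflos* KD replicates 1, 2 and 3. In NC ctrl replicates 1, 2 and 3, 29, 13 and 9 genes lay below the mean of the other controls. By this count, though not by its median, NC ctrl replicate 1 fell within the range of the KD libraries.

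**Figure D3:**
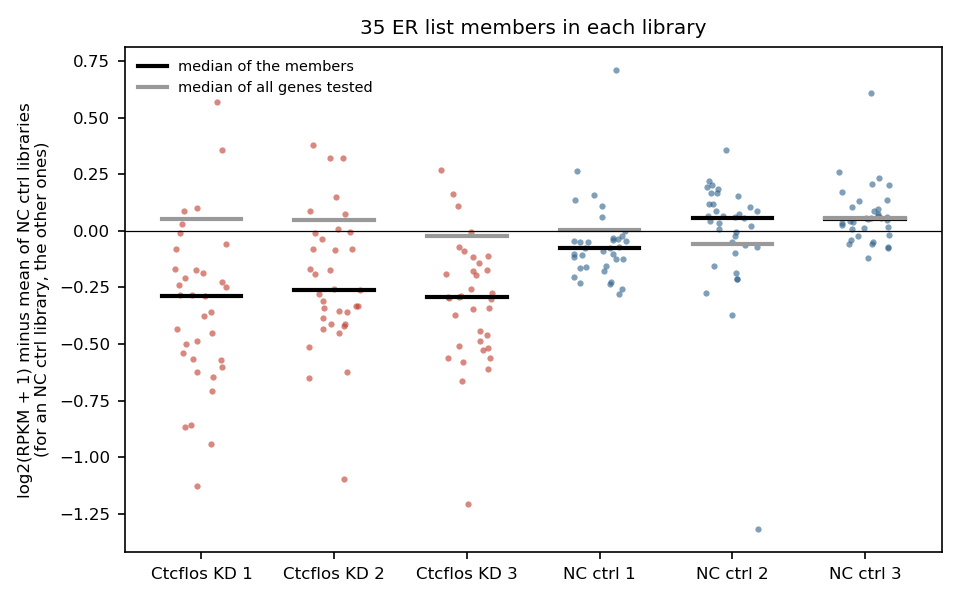
Difference of each of the 35 ER list genes (points) in each library from the mean of the NC ctrl libraries on the log2(RPKM + 1) scale, for an NC ctrl library from the mean of the other controls. The black medians of the genes lie between -0.29 and -0.26 in *Ctcflos* KD and between -0.08 and 0.06 in NC ctrl, and the grey medians of all genes tested lie near 0 throughout.

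Among the chaperones and lectins of the ER lumen, 4 of 5 genes were lower in *Ctcflos* KD (80.0%, against 12.4% of all genes). *Hspa5*, on the plus strand of chromosome 2 from 34771970 to 34777547 in Gencode vM21, encodes BiP, the central chaperone of the ER and the brake on its stress sensors. It was the most abundant gene of the list, with 132, 160.6 and 142 RPKM in *Ctcflos* KD and 189.7, 209.8 and 213 RPKM in NC ctrl. The groups did not overlap, and *Ctcflos* KD held 71.0% of the control level (145 ± 14.5 against 204 ± 12.7 RPKM, SD, n = 3, log2 fold change -0.49, standard error 0.133, limma adjusted p = 0.033). *Calr* encodes calreticulin, a soluble lectin that binds glycoproteins during folding. Its values were 98.9, 126 and 125 RPKM in *Ctcflos* KD and 161, 198 and 183 RPKM in NC ctrl. *Ctcflos* KD replicate 1 was the lowest library, and each KD value was under the lowest control (log2 fold change -0.63, standard error 0.151, limma adjusted p = 0.023). *Canx* encodes calnexin, the membrane-bound partner of calreticulin. It had 39.0, 44.3 and 46.6 RPKM in *Ctcflos* KD and 55.9, 58.8 and 56.4 RPKM in NC ctrl. The controls were close together and the groups apart (log2 fold change -0.39, standard error 0.120, limma adjusted p = 0.048). *Hsp90b1* encodes the ER paralog of heat shock protein HSP90, which folds integrins and Toll-like receptors. Its values were 76.4, 89.4 and 81.0 RPKM in *Ctcflos* KD and 109, 127 and 125 RPKM in NC ctrl. The ranges of the groups did not meet (log2 fold change -0.54, standard error 0.130, limma adjusted p = 0.023), and a pseudogene on the opposite strand, *1810014B01Rik*, overlaps *Hsp90b1* with a mean of 7.22 RPKM. *Hyou1*, a nucleotide exchange factor of BiP, was the exception of this group, with 5.79 to 6.86 RPKM in *Ctcflos* KD and 6.38 to 8.20 RPKM in NC ctrl (log2 fold change -0.18, 95% interval -0.45 to 0.09, limma adjusted p = 0.29).

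**Figure D4:**
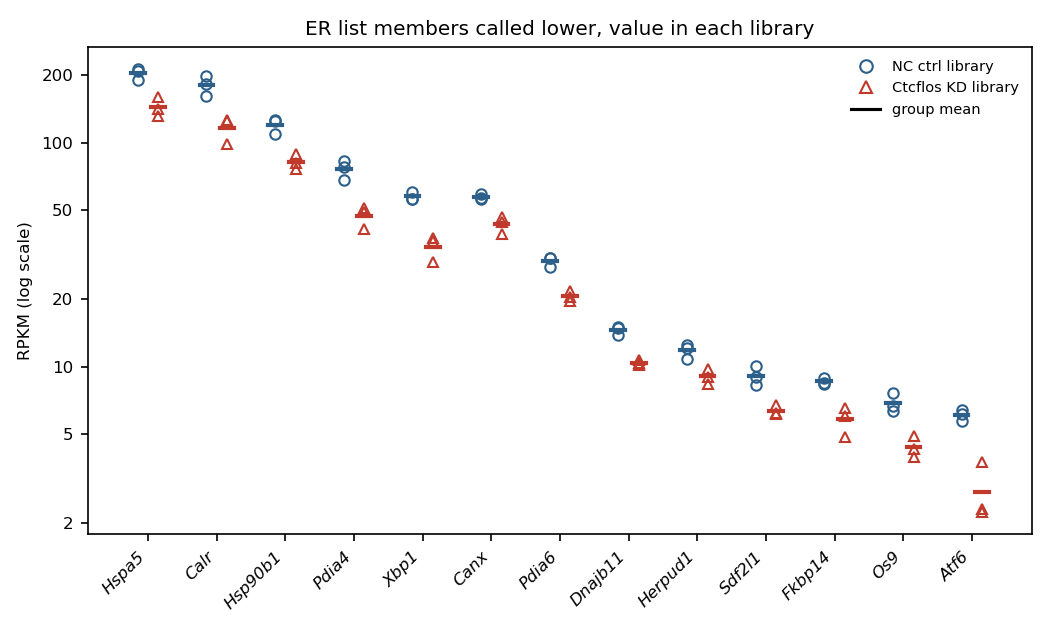
RPKM (log scale) in each NC ctrl library (blue circles) and each *Ctcflos* KD library (red triangles) for the 13 ER list genes called lower, ordered by control level, with bars at the group means. The triangles lie below the circles in each gene, from *Hspa5* at 204 RPKM in controls to *Atf6* at 6.08 RPKM.

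Of the 6 cochaperones and secreted ER stress proteins, 2 were called lower (33.3%, against 12.4% of all genes). The median log2 fold change of the 6 was -0.33. *Dnajb11* encodes a J-domain protein that hands unfolded clients to BiP. It had 10.1, 10.7 and 10.3 RPKM in *Ctcflos* KD and 13.9, 14.9 and 15.0 RPKM in NC ctrl. The replicates were tight and the groups apart (log2 fold change -0.45, standard error 0.0986, limma adjusted p = 0.018). *Sdf2l1*, whose product forms a complex with that of *Dnajb11*, had 6.13, 6.73 and 6.19 RPKM in *Ctcflos* KD and 8.98, 8.25 and 10.1 RPKM in NC ctrl. Its controls varied more than the KD libraries without meeting them (log2 fold change -0.46, standard error 0.108, limma adjusted p = 0.022). The most abundant genes of the group were not called. *Dnajb9*, a J-domain protein that represses IRE1, had 23.1, 28.6 and 27.4 RPKM in *Ctcflos* KD and 34.4, 26.6 and 30.5 RPKM in NC ctrl. *Ctcflos* KD replicates 2 and 3 exceeded NC ctrl replicate 2 (log2 fold change -0.20, 95% interval -0.52 to 0.12, limma adjusted p = 0.32). *Manf*, a neurotrophic factor retained in the ER and secreted under stress, had 17.3, 21.4 and 21.7 RPKM in *Ctcflos* KD and 24.0, 28.9 and 27.5 RPKM in NC ctrl. The groups were apart but the test was missed (log2 fold change -0.40, 95% interval -0.71 to -0.09, limma adjusted p = 0.063), and *Rbm15b* overlaps *Manf* on the same strand with a mean of 6.51 RPKM. *Dnajc3*, an inhibitor of PERK, also kept its groups apart (10.2 to 12.2 against 13.0 to 14.0 RPKM), and *Creld2* did not (3.92 to 5.32 against 5.23 to 5.47 RPKM), with limma adjusted p of 0.11 and 0.35.

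In the disulfide isomerases, which form and rearrange the disulfide bonds of clients, 2 of 5 genes were lower (40.0%, against 12.4% of all genes). *Pdia4* had 41.1, 48.9 and 51.1 RPKM in *Ctcflos* KD and 68.1, 82.8 and 77.5 RPKM in NC ctrl. The distance between the groups exceeded their ranges, and 61.8% of the control level was left (log2 fold change -0.68, standard error 0.139, limma adjusted p = 0.015). *Pdia6*, which also limits IRE1 signalling, had 19.7, 21.7 and 20.5 RPKM in *Ctcflos* KD and 27.9, 30.5 and 30.6 RPKM in NC ctrl. The KD libraries were close together and under each control (log2 fold change -0.50, standard error 0.109, limma adjusted p = 0.018). *P4hb*, protein disulfide isomerase itself and a subunit of the collagen prolyl hydroxylases, had 151, 170.6 and 126 RPKM in *Ctcflos* KD and 165, 164 and 185 RPKM in NC ctrl. *Ctcflos* KD replicate 2 exceeded NC ctrl replicates 1 and 2, so that the groups overlapped (log2 fold change -0.21, 95% interval -0.55 to 0.14, limma adjusted p = 0.34). *Pdia3*, the isomerase that works with calnexin and calreticulin, was at 24.7 to 25.3 RPKM in *Ctcflos* KD and 29.0 to 33.1 RPKM in NC ctrl, apart but not called (limma adjusted p = 0.097). *Ero1l*, the oxidase that recharges the isomerases, differed among libraries in a way that crossed the groups. It had 27.8, 32.5 and 10.6 RPKM in *Ctcflos* KD and 36.3, 13.6 and 34.5 RPKM in NC ctrl. *Ctcflos* KD replicate 3 and NC ctrl replicate 2 were low and the other 4 libraries high, and the interval of the log2 fold change was the widest of the list (-1.34 to 0.81, limma adjusted p = 0.705).

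Of 3 prolyl isomerases, which turn peptide bonds before proline and serve collagen folding, *Fkbp14* was lower (33.3%, against 12.4% of all genes). It had 4.87, 6.02 and 6.57 RPKM in *Ctcflos* KD and 8.41, 8.49 and 8.87 RPKM in NC ctrl. The KD libraries spread over a wider range than the controls and stayed below them (log2 fold change -0.50, standard error 0.118, limma adjusted p = 0.022). *Fkbp10* had 12.7, 11.4 and 13.9 RPKM in *Ctcflos* KD and 12.7, 17.4 and 14.0 RPKM in NC ctrl. Its groups overlapped (log2 fold change -0.20, 95% interval -0.52 to 0.13, limma adjusted p = 0.33), as did those of *Fkbp2* (5.46 to 6.23 against 5.96 to 7.25 RPKM). *Fkbp14* and *Fkbp10* overlap *Plekha8* and *Nt5c3b* on the opposite strand, each with a mean of 2.06 RPKM, and the table is not stated to count by strand.

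The sensors and XBP1 held the greatest changes of the list. *Atf6*, a membrane-bound transcription factor that is cut free under stress, lies on the minus strand of chromosome 1 from 170704674 to 170867771. It had 2.24, 2.31 and 3.74 RPKM in *Ctcflos* KD and 5.70, 6.38 and 6.17 RPKM in NC ctrl. *Ctcflos* KD replicate 3 was the highest of its group and still below each control, and 45.4% of the control level was left (log2 fold change -0.93, standard error 0.153, limma adjusted p = 0.0085). *Atf6* was the only gene of the list called in each fit with a library left out, with limma adjusted p from 0.00031 to 0.0497. It was also the only tested gene of the list that spans over 100 kb (163 kb), and genes of at least 100 kb had a median log2 fold change of -0.35 (886 genes) where shorter genes had 0.05 (8052 genes). The part of the gene span in the value of *Atf6* was not tested. The other 12 genes called lower span 2.25 to 31.7 kb.

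*Xbp1*, on the plus strand of chromosome 11 from 5520659 to 5525893, is the transcription factor whose mRNA is cut by IRE1. It had 29.5, 36.3 and 37.3 RPKM in *Ctcflos* KD and 56.3, 55.9 and 60.5 RPKM in NC ctrl. The highest KD library was far under the lowest control, with 59.7% of the control level left (log2 fold change -0.73, standard error 0.131, limma adjusted p = 0.010). RPKM of a transcript do not separate the spliced from the unspliced form of *Xbp1*, so its activity was not measured. *Ern1*, the gene of IRE1, was under the filter and had 0.739, 0.458 and 0.595 RPKM in *Ctcflos* KD and 0.631, 0.667 and 0.616 RPKM in NC ctrl. *Ctcflos* KD replicate 1 was above and the others below the controls (log2 fold change -0.04, 95% interval -0.27 to 0.19, limma adjusted p = 0.84 without the filter). *Eif2ak3*, the gene of PERK, was under it as well, with 1.03, 0.824 and 0.801 RPKM in *Ctcflos* KD and 0.951, 0.966 and 0.985 RPKM in NC ctrl. Its groups overlapped through *Ctcflos* KD replicate 1 (log2 fold change -0.06, 95% interval -0.27 to 0.15, limma adjusted p = 0.71 without the filter). On this scale the interval of a gene below 1 RPKM understates the change that its RPKM allow.

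In ER-associated degradation, 2 of 8 tested genes were lower. *Os9*, a lectin that passes misfolded glycoproteins to the ubiquitin ligase, had 4.28, 4.91 and 3.96 RPKM in *Ctcflos* KD and 6.67, 6.31 and 7.63 RPKM in NC ctrl. The groups were well apart (log2 fold change -0.55, standard error 0.113, limma adjusted p = 0.015). *Herpud1*, a ubiquitin-like protein of the same complex, had 8.37, 9.02 and 9.72 RPKM in *Ctcflos* KD and 10.9, 12.4 and 12.1 RPKM in NC ctrl. It was the called gene closest to the threshold (log2 fold change -0.35, standard error 0.108, limma adjusted p = 0.048). *Derl1*, a channel protein and the most abundant gene of the group, had 49.2, 51.6 and 41.4 RPKM in *Ctcflos* KD and 54.0, 43.1 and 57.9 RPKM in NC ctrl. NC ctrl replicate 2 fell within the range of the KD libraries (log2 fold change -0.12, 95% interval -0.47 to 0.24, limma adjusted p = 0.60). *Edem1*, which trims mannose from doomed glycoproteins, had 12.1, 12.2 and 12.2 RPKM in *Ctcflos* KD and 16.0, 13.5 and 15.5 RPKM in NC ctrl. Its KD libraries agreed closely and lay under the controls, short of the threshold (log2 fold change -0.28, 95% interval -0.53 to -0.03, limma adjusted p = 0.094). *Sel1l*, the adaptor of the ligase, was likewise apart at 5.10 to 5.71 against 6.51 to 6.92 RPKM (limma adjusted p = 0.069) and *Derl2* at 4.45 to 5.25 against 5.52 to 5.87 RPKM (limma adjusted p = 0.19). *Derl2* overlaps *Mis12* on the opposite strand (mean of 4.58 RPKM). *Syvn1*, the ligase itself, had 2.72, 1.24 and 1.20 RPKM in *Ctcflos* KD and 1.58, 1.52 and 1.43 RPKM in NC ctrl. Its positive log2 fold change of 0.07 came from *Ctcflos* KD replicate 1, without which it was -0.18, and *Syvn1* overlaps *Mrpl49* (mean of 11.8 RPKM) on the opposite strand. *Edem2* had 1.13 to 1.50 RPKM in *Ctcflos* KD and 1.27 to 1.72 RPKM in NC ctrl, and *Derl3*, under the filter, had 0.125 to 0.313 against 0.273 to 0.326 RPKM.

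Of the channel and its TRAP partners, through which new proteins enter the ER, the ER list holds 6 genes. By limma 0 of these 6 were called lower (0 at an unadjusted p under 0.05), where 12.4% of all genes were. Called higher were 0 (1, *Sec61a1*, at an unadjusted p under 0.05), where 11.5% of all genes were. In a list of 6 genes, 0 calls lie near these shares. The median log2 fold change of the 6 was -0.01. *Ssr3*, a TRAP subunit, had 83.0, 93.0 and 90.3 RPKM in *Ctcflos* KD and 80.7, 86.2 and 84.1 RPKM in NC ctrl. The ranges overlapped (log2 fold change 0.08, 95% interval -0.19 to 0.35, limma adjusted p = 0.63). *Ssr2*, another TRAP subunit, had 67.8, 84.7 and 70.2 RPKM in *Ctcflos* KD and 74.9, 79.4 and 84.5 RPKM in NC ctrl. *Ctcflos* KD replicate 2 was the highest of the 6 libraries (log2 fold change -0.10, 95% interval -0.41 to 0.20, limma adjusted p = 0.59). *Sec61a1*, the pore subunit, was the only gene of the ER list with each KD library above each control, at 22.5 to 26.3 RPKM in *Ctcflos* KD and 18.3 to 22.0 RPKM in NC ctrl. It was not called with all libraries (log2 fold change 0.30, 95% interval 0.02 to 0.58, limma adjusted p = 0.11) and was called without *Ctcflos* KD replicate 3 (log2 fold change 0.37, limma adjusted p = 0.042). *Ssr1* had 33.8 to 40.0 RPKM in *Ctcflos* KD and 30.2 to 34.1 RPKM in NC ctrl, *Sec61b* 11.6 to 12.8 against 13.1 to 14.8 RPKM and *Sec61g* 9.84 to 14.4 against 13.1 to 14.6 RPKM. *Ssr4*, a further TRAP subunit that is not on the ER list and is named here after its values were seen, was lower, at 8.31 to 9.88 against 11.5 to 12.3 RPKM (log2 fold change -0.34, standard error 0.105, limma adjusted p = 0.048). The difference between the channel genes and the chaperones was not tested.

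Other genes of the same pathways, drawn from 5 further lists by function, were called in both directions: of 110 tested, 14 were called lower (12.7%, against 12.4% of all genes) and 6 higher (5.45%, against 11.5% of all genes), with a median log2 fold change of -0.06. In the PERK-ATF4 branch, whose targets serve amino acid supply and stress-induced death, 0 of 14 genes were called lower by limma (0 at an unadjusted p under 0.05). The share of all genes was 12.4%. Called higher was 1 of the 14 (7.14%, against 11.5% of all genes), and the median log2 fold change was 0.13. The called gene was *Atf3*, a transcription factor of the stress response, with 6.62, 7.24 and 3.06 RPKM in *Ctcflos* KD and 2.55, 1.94 and 2.17 RPKM in NC ctrl. Its KD libraries lay above the controls and differed among themselves (log2 fold change 0.98, standard error 0.248, limma adjusted p = 0.027). *Atf4* itself had 90.7 to 123 RPKM in *Ctcflos* KD and 76.9 to 84.1 RPKM in NC ctrl, apart but not called (limma adjusted p = 0.099), and *Ddit3*, the gene of CHOP, had 13.0 to 18.7 against 14.6 to 18.4 RPKM (limma adjusted p = 0.995).

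Of 33 other ER folding enzymes, 7 were called lower (21.2%, against 12.4% of all genes) and 1 higher (3.03%, against 11.5%). Their median log2 fold change was -0.20. *Sil1*, a nucleotide exchange factor of BiP, had the lowest log2 fold change of these lists, with 1.93, 2.13 and 2.32 RPKM in *Ctcflos* KD and 6.24, 6.35 and 6.59 RPKM in NC ctrl. A level of 33.3% was left, with tight replicates in both groups (log2 fold change -1.24, standard error 0.0922, limma adjusted p = 0.0020). *Dnajc1*, a J-domain protein of the ER membrane, had 1.26 to 1.82 against 2.86 to 3.03 RPKM (log2 fold change -0.68, limma adjusted p = 0.0076). *Plod2*, a collagen lysyl hydroxylase, had 11.1 to 16.7 against 17.8 to 29.3 RPKM (log2 fold change -0.73, limma adjusted p = 0.041). *Hspa13*, an ATPase related to BiP, was higher, at 13.9 to 17.9 against 9.55 to 10.7 RPKM (log2 fold change 0.57, limma adjusted p = 0.018).

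In the other lists the calls went both ways, at shares near or below those of all genes (12.4% lower and 11.5% higher). Of 25 further degradation genes 2 were lower (8%) and 1 higher (4%). *Ufd1l* (log2 fold change -0.58, limma adjusted p = 0.015) was lower and is a cofactor of the segregase encoded by *Vcp*, which itself was higher (0.37, limma adjusted p = 0.045). *Ngly1*, also lower (-0.55, limma adjusted p = 0.020), removes glycans from extracted proteins. Of 26 genes of targeting, signal peptidase and N-glycosylation 4 were lower (15.4%) and 2 higher (7.69%). *Rpn2* (-0.51, limma adjusted p = 0.014), *Stt3b* (-0.48, limma adjusted p = 0.049) and *Tusc3* (-0.75, limma adjusted p = 0.032) belong to the oligosaccharyltransferase and were lower, as was *Ssr4*, while *Srprb* (0.60, limma adjusted p = 0.023) and *Srp68* (0.55, limma adjusted p = 0.033) of the signal recognition system were higher. The 12 regulators of the response had 1 call in each direction (8.33%). *Nck1*, an adaptor protein, was lower (-0.62, limma adjusted p = 0.0091) and *Traf2*, which couples IRE1 to JNK, was higher (0.56, limma adjusted p = 0.047). Of the 14 genes called lower in these lists, 13 had a span, and 4 span at least 100 kb (*Sil1*, *Dnajc1*, *Tusc3* and *Uggt1*), where 0 of the 6 called higher do. The part of the span was not tested.

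**Figure D5:**
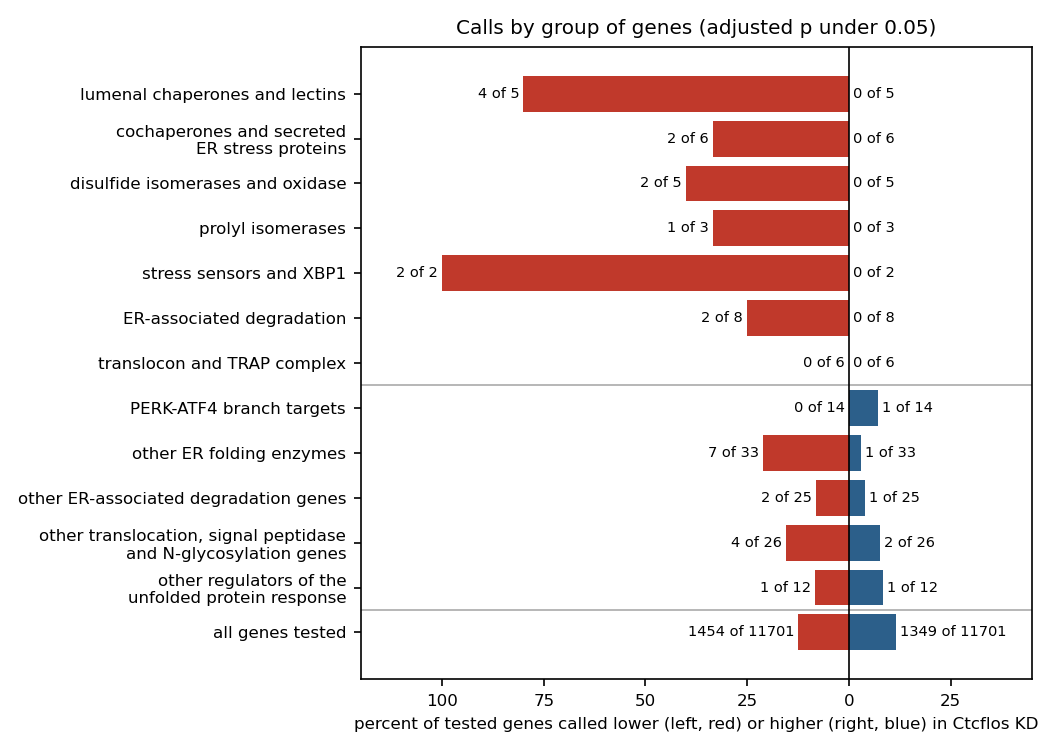
Percent of tested genes called lower (red, to the left) or higher (blue, to the right) in *Ctcflos* KD at an adjusted p under 0.05 from limma, for the 7 roles of the ER list (top), the 5 further lists (middle) and all genes tested (bottom), with the counts beside the bars. Each role of the ER list except the translocon stands above the 12.4% of all genes on the left, on 2 to 8 tested genes each. The shares run from degradation (2 of 8) to chaperones and lectins (4 of 5) and the sensors with XBP1 (2 of 2). PERK-ATF4 targets (0 of 14) and translocon genes (0 of 6) have no gene called lower, which in lists this short is near that share.

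The changes of the called genes were shared by their transcript accessions with a mean of at least 1 RPKM in a group. Of those with lower means, 1 of *Atf6* (0.129 against 0.105 RPKM) and 1 of *Os9* (0.291 against 0.238 RPKM) were higher in *Ctcflos* KD. Each of the 17 accessions of *Hspa5*, 10 of *Hsp90b1*, 8 of *Calr*, 12 of *Dnajb11* and 5 of *Xbp1* was lower in *Ctcflos* KD without overlap, with log2 fold changes from -0.64 to -0.48 for *Hspa5*, from -0.68 to -0.62 for *Calr* and from -0.74 to -0.55 for *Xbp1*. In *Canx* 13 of 14 accessions did not overlap between groups. Accessions of a gene share reads and are not independent. With RefSeq mRNAs alone, the same 13 genes were called.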

How the data were processed

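RNA-seq libraries of 3 *Ctcflos* KD and 3 NC ctrl samples were analysed. The authors deposited 1 table of RPKM per transcript accession (168326 lines, 305 exact repeats removed, decimal commas), and how it was made is not given in the sources used here. For their splice analysis they aligned 150 bp paired-end reads to GRCm38 with STAR. Groups come from the sample titles. The gene value was the mean RPKM over the accessions of a symbol, so that levels of genes depend on the accessions listed. Genes with a mean of at least 1 RPKM were tested with limma-trend (R 4.3.3, limma 3.58.1) on log2(RPKM + 1), which understates changes of low genes, with Benjamini-Hochberg adjustment over 11701 genes and a threshold of 0.05. A test for counts was not used. Depth was recovered from the value of 1 read on Ensembl transcripts of Gencode vM21 length (94.8 to 95.4% of low values were whole). The fit was tested on simulated data. Promoters are from RefSeq, and gene spans from Gencode vM21. Python 3.11.15, pandas 2.3.3, numpy 2.4.6 and matplotlib 3.10.9 were used. The ER list and the other lists were chosen with earlier results of these data known. Values per library are given for the genes called, the sensors, *Xbp1* and the 2 most abundant genes of each role. Of each other list, the 3 called genes of greatest change per direction are named, most by fold change alone. Values per library of *Ero1l* and *Syvn1* were added, and *Uggt1*, *Ssr4*, *Atf4*, *Ddit3* and genes with a promoter match outside the list named, after their values were seen. Protein sequences were not used here. Alternatives were a pseudocount of 0.1, no filter, scaling by the median of ratios, RefSeq mRNAs alone, the accession of highest mean, the replicate number as a block, limma without trend, an adjusted p of 0.01 and each library left out.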

Additional observations from a re-analysis of the deposited data

How the results depend on the processing

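The median log2 fold change of the ER list stayed between -0.30 and -0.23 under each alternative, while the counts moved. Of 457 fold changes of the ER list genes under the alternatives, 386 kept their direction and their side of the threshold, 61 lost the call, 5 gained it and 5 changed sign. Most of the 457 belong to genes not called at first, which had no call to lose. The 61 lost calls fell on 12 of the 13 genes called lower. These 13 genes kept the call in 4 (*Herpud1*) to 13 (*Atf6*) of 13 alternative fits. Without a filter 7 ER list genes were called lower, with 1807 genes and 7 genes of the other lists called in all. At an adjusted p of 0.01 the counts were 1 (*Atf6*), 523 and 4, and that 1 of 35 was near the 3.00% of all genes called lower. With each library left out they ran from 1 to 15 ER list genes lower, 0 to 1 higher (*Sec61a1*, without *Ctcflos* KD replicate 3), 369 to 4810 genes and 2 to 32 genes of the other lists. The pseudocount, both accession choices, median of ratios scaling and limma without trend gave 12 to 14 ER list genes lower.

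The labels number KD and control replicates alike but state no pairing. Correlations between the deviations of a KD library and the control with its number were 0.29, -0.29 and -0.42 for replicates 1, 2 and 3. They rest on 3 libraries per group and cannot decide whether the numbers pair the samples. With the replicate number as a block 6 ER list genes (*Atf6*, *Calr*, *Fkbp14*, *Os9*, *Pdia4* and *Xbp1*) were called lower, 1671 genes in all and 10 of the other lists.

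The direction changed in 4 uncalled genes. With each library left out, the log2 fold change ran from -0.12 to 0.010 in *Edem2* (positive without NC ctrl replicate 3), from -0.18 to 0.20 in *Syvn1* and from -0.22 to 0.036 in *Sec61g* (sign changed without *Ctcflos* KD replicate 1 in both), and from -0.70 to 0.21 in *Ero1l* (positive without *Ctcflos* KD replicate 3). With the accession of highest mean *Syvn1* was at -0.031. The cause of these changes, and of those in the counts above, was not tested. The fit without a filter covered more genes (38335), and the fits with a library left out had fewer libraries.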

Other observations

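The library pattern of *Ero1l* recurred in genes outside the ER list, which were looked for after its values were seen. In 30 of 11701 genes, *Ctcflos* KD replicate 3 and NC ctrl replicate 2 were both at most 0.5 of each other library, and *Ero1l* was 1 of these. *Slc2a1*, a glucose transporter gene, had 16.1, 14.5 and 4.81 RPKM in *Ctcflos* KD and 14.0, 6.77 and 14.5 RPKM in NC ctrl. *Pdk1*, a kinase gene that holds back pyruvate oxidation, had 14.6, 17.6 and 5.62 RPKM in *Ctcflos* KD and 15.4, 6.94 and 16.6 RPKM in NC ctrl. *Slc16a3*, a lactate transporter gene, had 18.9, 22.6 and 3.96 RPKM in *Ctcflos* KD and 14.8, 5.82 and 17.0 RPKM in NC ctrl. *Ddit4*, on the list of PERK-ATF4 targets, was a further one, with 33.5, 37.9 and 14.6 RPKM in *Ctcflos* KD and 32.7, 12.3 and 31.3 RPKM in NC ctrl. The genes named were picked from the 30 without a set rule. Genes of other kinds, such as *H2-Q7*, *H2-Ab1*, *Rcor2* and *Gpr35*, were among the 30 as well. *Ctcflos* KD replicate 3 was the shallowest library (60.8 mio reads) and NC ctrl replicate 2 the deepest (79.2 mio reads). The cause of the pattern was not tested.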
